A study of Mus musculus with 2 samples.

Results

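The immediate early transcription factors Fos, Fosb, Jun, Junb, Jund, Egr1, Egr2, Egr3, Ier2 and Nr4a1 were described in single-cell RNA sequencing counts of mouse popliteal lymph nodes (PLNs). These 10 genes were chosen by symbol from the 32285 genes listed for both libraries, by name rather than by a measured limit, and all 10 were detected. Earlier results of these data were known when they were chosen. The nodes came from male TNF-Tg mice on the C57BL/6 strain, which carry a TNF transgene and develop inflammatory-erosive arthritis, and every animal in both groups carried it. The Advanced library held cells of 6 PLNs from 3 mice older than 8 months, and the Early library cells of 6 PLNs from 3 mice aged 5 to 6 months. The nodes were minced and digested with Accumax at room temperature, and the sort kept nucleated (Hoechst+) and live (Sytox Green-) cells of every lineage. The mice of a stage were pooled into 1 library, so stage, age and library cannot be told apart, and no difference between stages has a replicate check.

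Immediate early genes are transcribed within minutes of a stimulus from regulators that the cell already holds. Fos and Jun proteins pair through leucine zippers to form the AP-1 factor, Egr proteins bind GC-rich sites through zinc fingers, and Nr4a1 is an orphan nuclear receptor that is switched on by antigen receptor signals in lymphocytes. Dissociating a tissue with enzymes is itself known to raise many of these genes, and Cd83 and Myc, which mark activated B cells, were therefore read in the same cells. No undissociated sample was analysed here, so the part of digestion in any level was not tested.

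Promoter sequences are shown for Egr2 and Nr4a1, which were called higher in Cd83-high B cells of both libraries, and for Fos and Jun, which were not. Each is the 250 bases before the RefSeq transcript start on GRCm38.p6, written 5′ to 3′ on the strand of the gene. Capitals mark the CArG box, the site of serum response factor, and TGACG, the core of the cyclic AMP response element (CGTCA where it lies on the other strand).
Egr2 (chr10:67537619-67537868, plus strand): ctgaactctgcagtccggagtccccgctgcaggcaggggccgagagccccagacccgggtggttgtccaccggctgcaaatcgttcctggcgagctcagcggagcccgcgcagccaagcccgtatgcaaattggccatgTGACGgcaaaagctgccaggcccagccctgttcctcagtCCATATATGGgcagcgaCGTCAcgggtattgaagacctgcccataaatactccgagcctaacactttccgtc
Nr4a1 (chr15:101266596-101266845, plus strand): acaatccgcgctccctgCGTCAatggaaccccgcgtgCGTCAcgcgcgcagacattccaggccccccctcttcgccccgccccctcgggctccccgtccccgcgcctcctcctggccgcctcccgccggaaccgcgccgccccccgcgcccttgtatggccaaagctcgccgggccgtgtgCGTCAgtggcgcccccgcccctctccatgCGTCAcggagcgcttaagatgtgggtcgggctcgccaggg
Fos (chr12:85473640-85473889, plus strand): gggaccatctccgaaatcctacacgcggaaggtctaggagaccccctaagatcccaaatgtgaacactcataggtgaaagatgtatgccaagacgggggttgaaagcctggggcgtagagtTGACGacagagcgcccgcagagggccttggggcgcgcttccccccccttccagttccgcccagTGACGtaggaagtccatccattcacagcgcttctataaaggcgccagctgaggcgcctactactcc
Jun (chr4:95052223-95052472, minus strand): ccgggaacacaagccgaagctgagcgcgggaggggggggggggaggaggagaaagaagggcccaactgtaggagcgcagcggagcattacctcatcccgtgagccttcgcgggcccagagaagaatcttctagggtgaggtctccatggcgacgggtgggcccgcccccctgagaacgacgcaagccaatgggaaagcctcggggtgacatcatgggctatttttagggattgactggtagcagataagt
Both the Egr2 and the Nr4a1 window lie inside the annotated span of their own gene but outside every annotated exon, since longer transcripts start further upstream, and the Fos and Jun windows lie just outside the gene. The Egr2 window held 1 CArG box, at 72 to 63 bases before the start, and 2 TGACG motifs. The Nr4a1 window held 4 TGACG motifs, the nearest at 40 to 36 bases, and the Fos window held 2, together with the letters TATAA at 33 to 29 bases. The Jun window held none of these motifs in the letters searched. Both strands were searched, and a CArG box and a TGACG motif did not overlap in any of these windows. Bases farther upstream than the 250 shown were not searched, so a site lying there would not be seen. A RefSeq window within 50 bases of the annotated start was searched for 6 of the 10 members (the 4 shown, Fosb and Junb). Egr1 was left out of this search. Of the 6 windows, 5 held TGACG, against 17.8% of 32851 RefSeq promoters of the same length, and 1 held a CArG box, against 1.47%. TATAA was found in 1 of the 6, against 22.8% of all promoters.

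On GRCm38 with GENCODE M21, the 10 genes lie on 8 chromosomes. Junb (8:84974484-84978718, minus strand), Jund (8:70698949-70700616, plus strand) and Ier2 (8:84661331-84662852, minus strand) share chromosome 8, and each has a reference transcript of 1 exon, as does Jun (4:95049034-95052222, minus strand). Fos (12:85473890-85477273, plus strand) and Fosb (7:19302696-19310051, minus strand) have 4 exons. Egr1 lies on chromosome 18, Egr2 (10:67535475-67542188, plus strand) on chromosome 10, Egr3 (14:70077203-70082614, plus strand) on chromosome 14 and Nr4a1 (15:101254269-101274795, plus strand) on chromosome 15.

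The Advanced library held 83148059 unique molecular identifiers (UMIs) over 8201 barcodes, and the Early library 67610110 UMIs over 8242 barcodes, of which 20 barcodes occurred in both. After cells with fewer than 200 genes were left out, 8183 Advanced and 8221 Early cells remained, with medians of 7837 and 6643 UMIs. Cells were gated on raw marker UMIs as B cells (6040 Advanced and 7631 Early), T cells (1115 and 166), monocytes or macrophages (163 and 95), plasmacytoid dendritic cells (69 and 55), other dendritic cells (18 and 19), plasma cells (25 and 22) and NK cells (3 and 4, not used further), which left 750 and 229 cells ungated. The gates held their defining markers. Gated B cells had 2597 Advanced and 2878 Early CPM of Cd79a (UMIs of a gene per 1000000 UMIs of the class) and 4.55 and 0.477 CPM of Cd3e, while gated T cells had 445 and 451 CPM of Cd3e. Ighd, an immunoglobulin gene of B cells, stood in T cells at 4.50% of its B cell level in the Advanced library and 2.96% in the Early library, which gives the size of free RNA. Intervals throughout are exact, at 95%, and cover counting error only.

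The order of the cell classes differed between members, and many of these orders held in both libraries. Nr4a1 was highest in monocytes or macrophages, at 619 CPM in the Advanced and 557 CPM in the Early library, which was 12.8-fold (11.9 to 13.7) and 15.1-fold (13.8 to 16.5) its B cell level. Egr1, a zinc finger factor induced by growth factor and antigen receptor signals, was also higher in these cells (210 Advanced and 184 Early CPM) than in B cells (75.9 and 48.2 CPM). Monocytes or macrophages further exceeded B cells, with separate intervals in both libraries, for Fos, Jun, Junb and Ier2. Fos had 583 Advanced and 449 Early CPM there, Jun 246 and 187 CPM, and Ier2, a short nuclear protein of the serum response, 441 and 431 CPM.

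Egr3 ran the other way. This zinc finger factor, known in lymphocytes for its induction by antigen receptors, was at 48.3 Advanced and 41.0 Early CPM in B cells, above CD4 T cells, CD8 T cells, monocytes or macrophages and plasmacytoid dendritic cells in both libraries. Monocytes or macrophages held only 5 Advanced and 6 Early UMIs of it (2.94 and 5.21 CPM). In plasmacytoid dendritic cells Egr3 stood at 3.49% of the B cell level in the Advanced and 3.03% in the Early library, where Ighd stood at 4.98% and 3.26%, so it was read there as background. In T cells it stood at 15.3% and 24.7%, above Ighd in both libraries. The 18 Advanced and 19 Early dendritic cells had 48.6 and 63.9 CPM of Egr3, on 25 and 29 UMIs.

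The Jun family members differed from each other in where they stood. Jund, the Jun protein that resting cells express most steadily, was higher in B cells (831 Advanced and 813 Early CPM) than in CD8 T cells, monocytes or macrophages and plasmacytoid dendritic cells, and lowest in monocytes or macrophages, at 418 and 293 CPM, where its interval met that of plasmacytoid dendritic cells in the Advanced library. Junb, which can act against Jun within AP-1, was instead higher in monocytes or macrophages (1019 Advanced and 1029 Early CPM) than in B cells (546 and 520 CPM). Both genes were higher in B cells than in plasmacytoid dendritic cells, and in CD4 than in CD8 T cells, in both libraries. Plasmacytoid dendritic cells had the lowest Junb of these classes, 123 Advanced and 159 Early CPM. CD4 T cells exceeded both B cells and CD8 T cells for Junb, at 941 Advanced and 743 Early CPM. Fosb, a Fos relative, was higher in B cells (44.2 Advanced and 55.9 Early CPM) than in T cells of either kind and in monocytes or macrophages. Fos itself was high in dendritic cells (1058 and 1144 CPM), plasma cells (453 and 869 CPM) and plasmacytoid dendritic cells (317 and 482 CPM), but the first 2 of these rest on at most 25 cells a library.

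**Figure D1:**
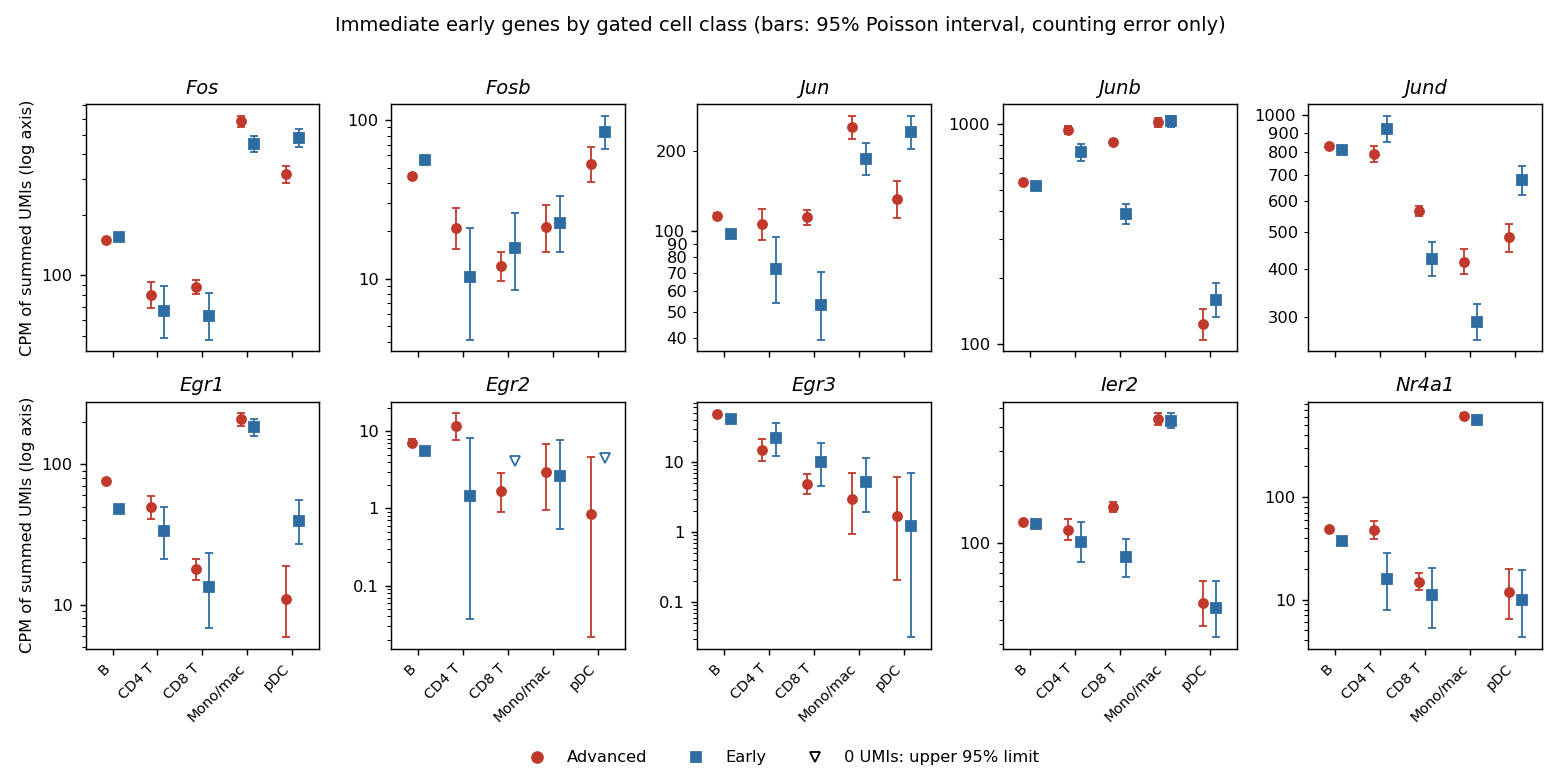
Level of each member (CPM of summed UMIs, log axis) in 5 gated cell classes, with red circles for the Advanced and blue squares for the Early library, bars for 95% Poisson intervals of counting error and open triangles for the upper limit where 0 UMIs were counted. Nr4a1 stands at 619 and 557 CPM in monocytes or macrophages, while Egr3 is highest in B cells at 48.3 and 41.0 CPM.

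Egr2, known in T cells for restraining activation, had the fewest UMIs of the members. B cells had 390 Advanced and 324 Early UMIs of it, or 7.15 and 5.52 CPM, and in Early CD8 T cells, plasmacytoid and other dendritic cells it had 0 UMIs. Because Egr2 had so few counts outside B cells, no order across the other classes could be read for it.

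Within B cells the members also differed in how unevenly their UMIs were spread. With every B cell thinned to 3000 UMIs (5885 Advanced and 7528 Early cells), Jund was detected in 84.0% of Advanced and 82.9% of Early cells and Junb in 65.9% and 62.9%. Fos was detected in 28.2% and 28.3%, against 47.3% and 44.3% of B cells before thinning. Egr3 was detected in 11.7% of Advanced and 9.21% of Early B cells at this depth, beside 1 of 69 and 0 of 55 plasmacytoid dendritic cells thinned alike, with upper limits of 7.81% and 6.49%. In a second draw of the same thinning, the UMIs of Egr1 gathered in few cells: the 1% with the most held 26.4% of Advanced and 36.0% of Early Egr1 UMIs, and its variance was 2.87 and 3.02 times its mean. Ier2 was spread more evenly, with a variance of 1.38 times its mean in both libraries, and its top 1% of cells held 9.55% and 9.75% of its UMIs.

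The first comparison asked whether the members differed between Advanced and Early B cells. A gene was called when at least 1 library had 10 CPM of it and its Advanced over Early ratio had a whole interval beyond 1.3-fold, a rule of size and not a test. By this rule 1 of the 9 members with enough counts was called higher in Advanced B cells, against 2.66% of the 6999 genes compared, and 0 were called lower, against 0.129%. The called member was Egr1, at 75.9 CPM in Advanced and 48.2 CPM in Early B cells, a ratio of 1.57 (1.5 to 1.65). Its share of thinned B cells with a UMI was 12.9% (12.1% to 13.8%) in the Advanced and 7.80% (7.20% to 8.43%) in the Early library.

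The other genes of the Egr and Nr4a group had ratios above 1 that did not meet the rule. Nr4a1 was at 48.5 Advanced and 37.0 Early CPM, a ratio of 1.31 (1.24 to 1.39), and Egr3 had a ratio of 1.18 (1.12 to 1.25). Egr2 had a ratio of 1.3 (1.12 to 1.51) but stayed under 10 CPM in both libraries. The median log2 ratio of the 3 members of this group with enough counts was 0.39, beside 0.07 over all genes compared.

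Of the AP-1 genes and Ier2, 4 had ratios between 0.976 and 1.05, and Jun and Fosb lay farther from 1. Jun was at 114 Advanced and 98.0 Early CPM, a ratio of 1.16 (1.12 to 1.21), and Fos at 151 and 154 CPM, a ratio of 0.976 (0.947 to 1.01). Junb, Jund and Ier2 had ratios of 1.05, 1.02 and 1.02, and these turned below 1 (0.967, 0.942 and 0.940) when libraries were scaled by TMM factors, which moved every B cell log2 ratio by −0.12. Fosb had the lowest ratio of the members, 0.789 (0.749 to 0.832), from 44.2 Advanced and 55.9 Early CPM, and 0.727 with TMM factors, under which 1 member was called lower. The summed UMIs of the 10 members gave 1995 Advanced and 1899 Early CPM, a ratio of 1.05 (1.04 to 1.06), which turned to 0.968 (0.960 to 0.976) with TMM factors.

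Cd83, a surface protein of activated B cells, moved opposite to Egr1 between the stages. It was at 86.5 CPM in Advanced and 119 CPM in Early B cells, a ratio of 0.728, and was called lower. Myc, a driver of lymphocyte growth, was at 44.8 and 37.3 CPM, a ratio of 1.20. Of 14 other immediate early genes with enough counts 0 were called in either direction, among them Klf2 (1.17), a factor of resting lymphocytes, and Socs3 (0.777), an inhibitor of cytokine signals. Of 14 genes of the antigen receptor response only Cd83 was called, and of 8 heat shock genes 0.

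**Figure D2:**
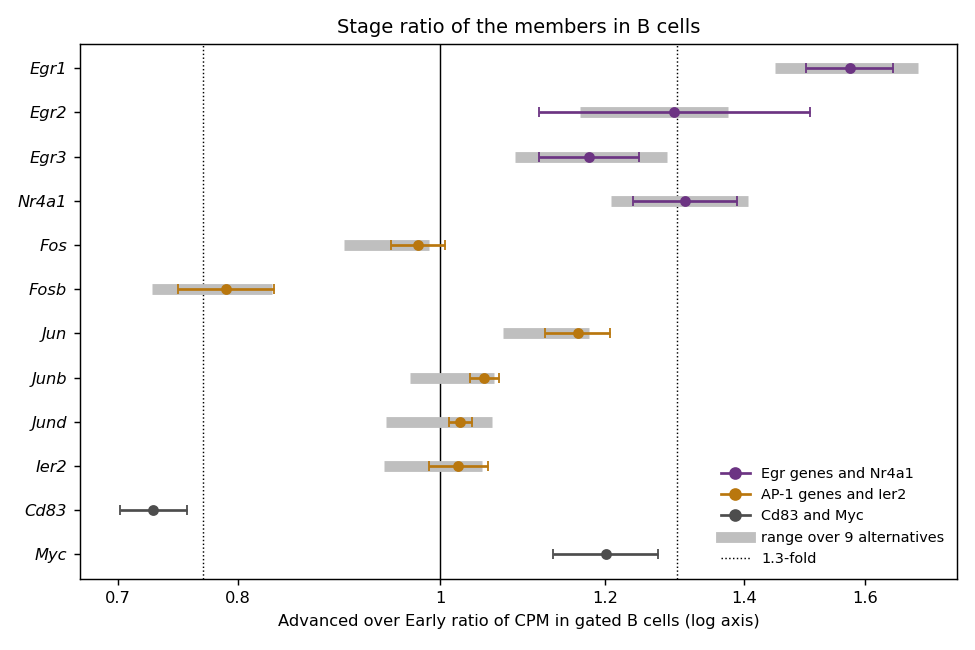
Ratio of CPM in Advanced over Early gated B cells (log axis) for each member, Cd83 and Myc, with bars for 95% intervals of counting error, grey bands for the range over 9 processing alternatives and dotted lines at 1.3-fold. Egr1 at 1.57 has its interval wholly beyond the upper dotted line and Cd83 at 0.728 is beyond the lower one, while Fos at 0.976 sits near 1.

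The B cells of the libraries differed in depth, so the ratios were also read within ranges of UMIs per cell, from 1000 to 20000. Shallower and deeper B cells than these entered the pooled ratios alone. Egr1 had ratios of 1.91 (1.77 to 2.06) at 5000 to 7500 UMIs (2773 Advanced and 4908 Early cells), 1.35 (1.22 to 1.49) at 7500 to 10000 (1570 and 1273 cells) and 1.37 (1.25 to 1.51) at 10000 to 20000 (1145 and 1017 cells). Few cells were shallower, and the Egr1 intervals held 1 there, with ratios of 1.26 (0.338 to 5.73) at 1000 to 3000 UMIs (115 and 69 cells) and 0.994 (0.659 to 1.49) at 3000 to 5000 (177 and 204 cells). Nr4a1 had ratios of 1.77 (0.602 to 6.27), 0.972 (0.582 to 1.61), 1.55 (1.42 to 1.68), 1.45 (1.28 to 1.64) and 1.11 (0.986 to 1.25) from the shallowest to the deepest range, so that its interval lay above 1 in 2 of the 5. Cd83 had ratios below 1 in all 5 ranges, between 0.649 and 0.8, the shallowest with an interval that held 1 (0.385 to 1.69). Fosb had ratios between 0.621 and 0.874 in the 4 deeper ranges and 1.26 (0.564 to 3.02) in the shallowest.

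The second comparison asked which members were more abundant in B cells that carried Cd83. Among B cells thinned to 3000 UMIs, cells with 2 or more Cd83 UMIs (239 Advanced and 524 Early) were set against cells with 0 (4745 and 5708), separately in each library. Their median depths before thinning were close, 7302 against 7512 UMIs in the Advanced and 6583 against 6604 UMIs in the Early library. All 4 genes of the Egr and Nr4a group were called higher in Cd83-high cells in both libraries, and 0 of the 6 AP-1 genes and Ier2 were, so that 4 of 10 members were called against 0.401% of 6730 genes. These ratios describe cells within 1 library and carry no test, since cells are not replicates. Shares over all genes are given for scale alone, since the members and lists were chosen with earlier results of these data known.

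Egr3 had 190 CPM in Cd83-high and 41.0 CPM in Cd83-zero Advanced B cells, a ratio of 4.62 (3.81 to 5.58), and 149 against 30.8 CPM in Early B cells, a ratio of 4.85 (4.14 to 5.66). Nr4a1 had 159 against 44.3 CPM in the Advanced library (3.59, 2.92 to 4.39) and 105 against 29.0 CPM in the Early library (3.62, 3.02 to 4.33). For both genes the intervals of the 2 libraries overlap. Egr1 had 174 against 65.0 CPM in the Advanced library (2.68, 2.21 to 3.24) and 80.2 against 42.5 CPM in the Early library (1.89, 1.55 to 2.28). Egr2, on few UMIs, had 23.7 against 5.62 CPM in the Advanced (4.22, 2.34 to 7.18) and 17.8 against 3.50 CPM in the Early library (5.08, 3.12 to 8.09). As Cd83-high cells were few, Cd83-zero cells still held most UMIs of each gene, for Egr3 81.1% in the Advanced and 69.2% in the Early library of the UMIs of the 2 sets of cells.

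Jun went the opposite way at this depth. It had 80.9 CPM in Cd83-high and 119 CPM in Cd83-zero Advanced B cells, a ratio of 0.683 (0.516 to 0.887), and 52.2 against 103 CPM in Early B cells, a ratio of 0.508 (0.402 to 0.634), which was called lower in the Early library alone, against 0.203% of genes there and 0.473% in the Advanced library. The remaining AP-1 genes and Ier2 had ratios from 0.864 to 1.34 in the Advanced and from 0.884 to 1.27 in the Early library. Fos was detected in 27.6% of Cd83-high and 28.2% of Cd83-zero Advanced B cells, and in 26.5% and 28.5% of Early ones.

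The levels also followed the number of Cd83 UMIs in the cell. Egr3 had 41.0, 71.8, 101 and 353 CPM in Advanced B cells with 0, 1, 2 and 3 or more Cd83 UMIs, and 30.8, 47.3, 81.9 and 277 CPM in Early ones. Nr4a1 had 44.3, 60.7, 77.4 and 310 CPM in the same Advanced cells and 29.0, 45.3, 57.5 and 194 CPM in Early ones. Both genes had a higher value at each further step in both libraries, although the intervals at 1 and 2 Cd83 UMIs overlap for Nr4a1 in both libraries and for Egr3 in the Advanced library. Egr1 had 65.0, 91.4, 120 and 274 CPM in Advanced cells and 42.5, 53.2, 58.5 and 121 CPM in Early ones, with the intervals at 1 and 2 UMIs overlapping in both. Jun had 119, 108, 79.6 and 83.3 CPM in Advanced cells, where its last 2 intervals overlap, and 103, 91.6, 56.5 and 44.0 CPM in Early ones.

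**Figure D3:**
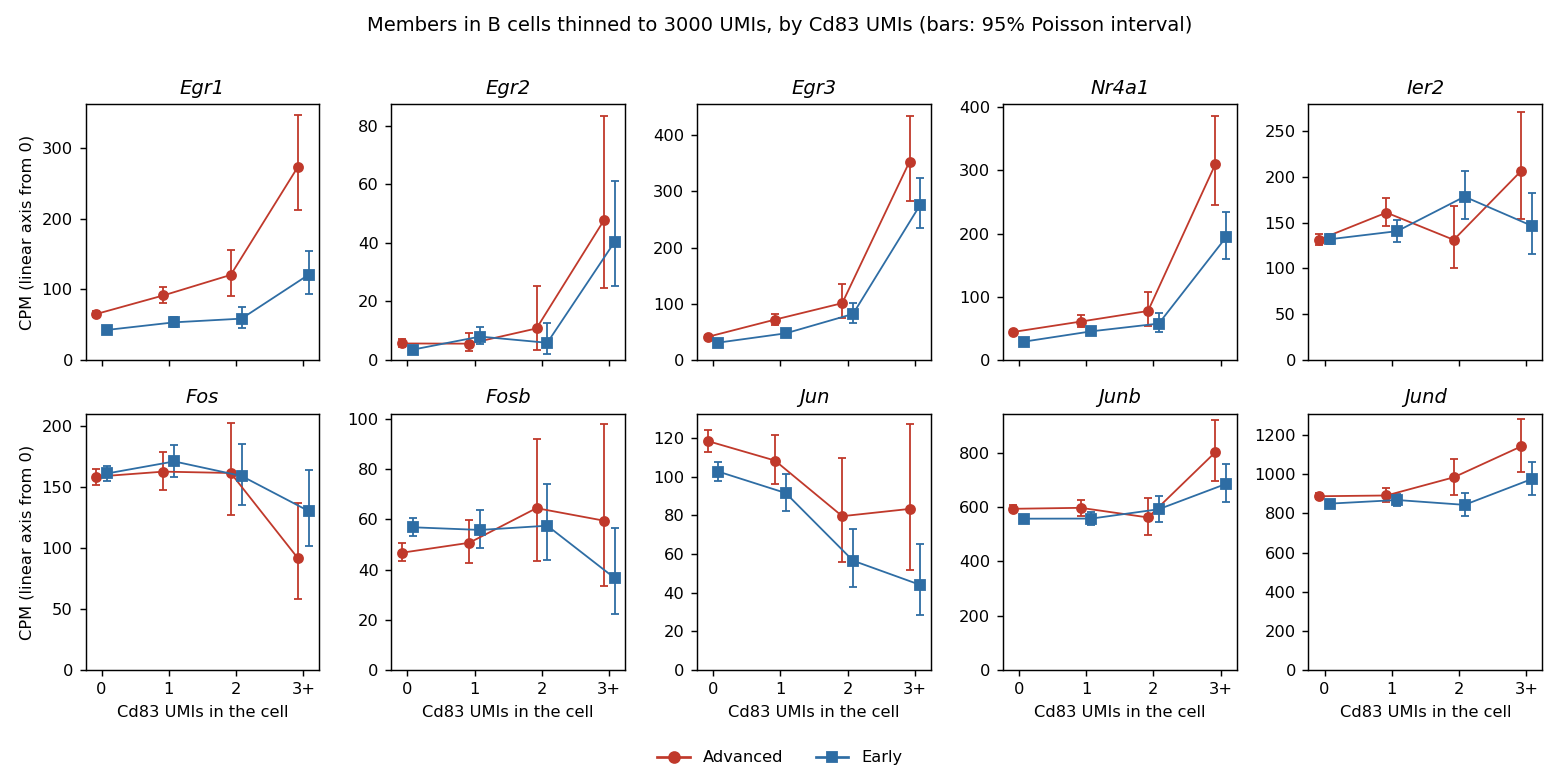
Level of members in B cells thinned to 3000 UMIs (CPM, linear axis from 0) by the number of Cd83 UMIs in the cell, with red circles for the Advanced and blue squares for the Early library and bars for 95% Poisson intervals of counting error. Egr3 stands at 353 CPM in Advanced and 277 CPM in Early cells with 3 or more Cd83 UMIs, while Jun stands at 83.3 and 44.0 CPM there and at 119 and 103 CPM in cells with 0.

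Genes outside the members were read in the same cells from lists of related genes. Of the antigen receptor list, 8 of 15 genes were called higher in Cd83-high Advanced cells and 6 of 14 in Early cells, against 0.931% and 0.957% of all genes. Myc was among them, with ratios of 2.99 in the Advanced and 1.83 in the Early library. So were Nab2, a corepressor that binds Egr proteins (3.44 and 2.21), Rel, an NF-kappaB subunit (1.83 and 1.70), Icam1, an adhesion molecule (2.14 and 1.89), and Bcl2a1b, a survival gene of the Bcl2 family with near-identical copies that may share reads (2.37 and 2.25), and Nfkbid, an inhibitor of the IkappaB family (2.34 and 2.23). Ccl4, a chemokine (2.95), and Tnfaip3, an inhibitor of NF-kappaB signals (2.24), were called in the Advanced library alone. Of the other immediate early genes only Gadd45b, a stress response gene, was called in both libraries (1.97 and 1.89), with Dusp2, a phosphatase, called in the Early library (1.42 Advanced and 1.48 Early). Of 8 heat shock genes 0 were called in either library.

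The third comparison set B cells with a Myc UMI (658 Advanced and 692 Early) against B cells with 0 (5227 and 6836). Egr1, Egr3 and Nr4a1 were called higher in both libraries, 3 of 10 members against 0.164% of 6706 genes. Nr4a1 had 95.7 CPM in Myc-positive and 45.9 CPM in Myc-zero Advanced cells, a ratio of 2.09 (1.77 to 2.45), and 74.7 against 33.3 CPM in Early cells, a ratio of 2.25 (1.87 to 2.68). Egr3 had ratios of 2.18 in the Advanced and 2.07 in the Early library, and Egr1 of 1.61 and 1.90. Egr2 had ratios of 2.40 and 2.12 and was called in the Advanced library alone, so that 4 members were called higher there, against 0.337% of genes, and 3 in the Early library, against 0.466%. None was called lower in either library, against 0.0701% and 0.0874%. The AP-1 genes and Ier2 had ratios from 0.987 to 1.17. With cells thinned to 1500 UMIs, 0 members were called in both libraries, since 0 were called in the Advanced library, where Egr1 had a ratio of 1.14 (0.832 to 1.52), Egr3 1.61 (1.15 to 2.21) and Nr4a1 1.33 (0.943 to 1.83), although Egr1 (1.82), Egr3 (2.44) and Nr4a1 (2.57) were still called in the Early library. Of the antigen receptor list, Cd83, Nfkbid and Bcl2a1b were called higher in Myc-positive cells of both libraries and Ccl4 in the Advanced library, 4 of 15 and 3 of 14 genes. The median Myc-positive cell had 7705 UMIs before thinning, against 7473 in Myc-zero Advanced cells, and 6950 against 6569 in Early cells.

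Cells with both activation genes stood highest for Nr4a1 and Egr3. Nr4a1 was detected in 32.5% of Advanced B cells with a UMI of both Cd83 and Myc (160 cells), in 13.7% with Cd83 alone, 12.4% with Myc alone and 11.2% with neither. In Early B cells these shares were 24.5% (196 cells), 10.9%, 10.7% and 7.37%. Egr3 was detected in 29.4%, 15.6%, 13.3% and 9.89% of the same Advanced cells and in 25.0%, 12.3%, 13.5% and 7.64% of the Early ones. Fos did not follow this order, at 25.0%, 29.6%, 30.1% and 27.9% of Advanced cells and 26.0%, 26.9%, 31.5% and 28.3% of Early cells.

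**Figure D4:**
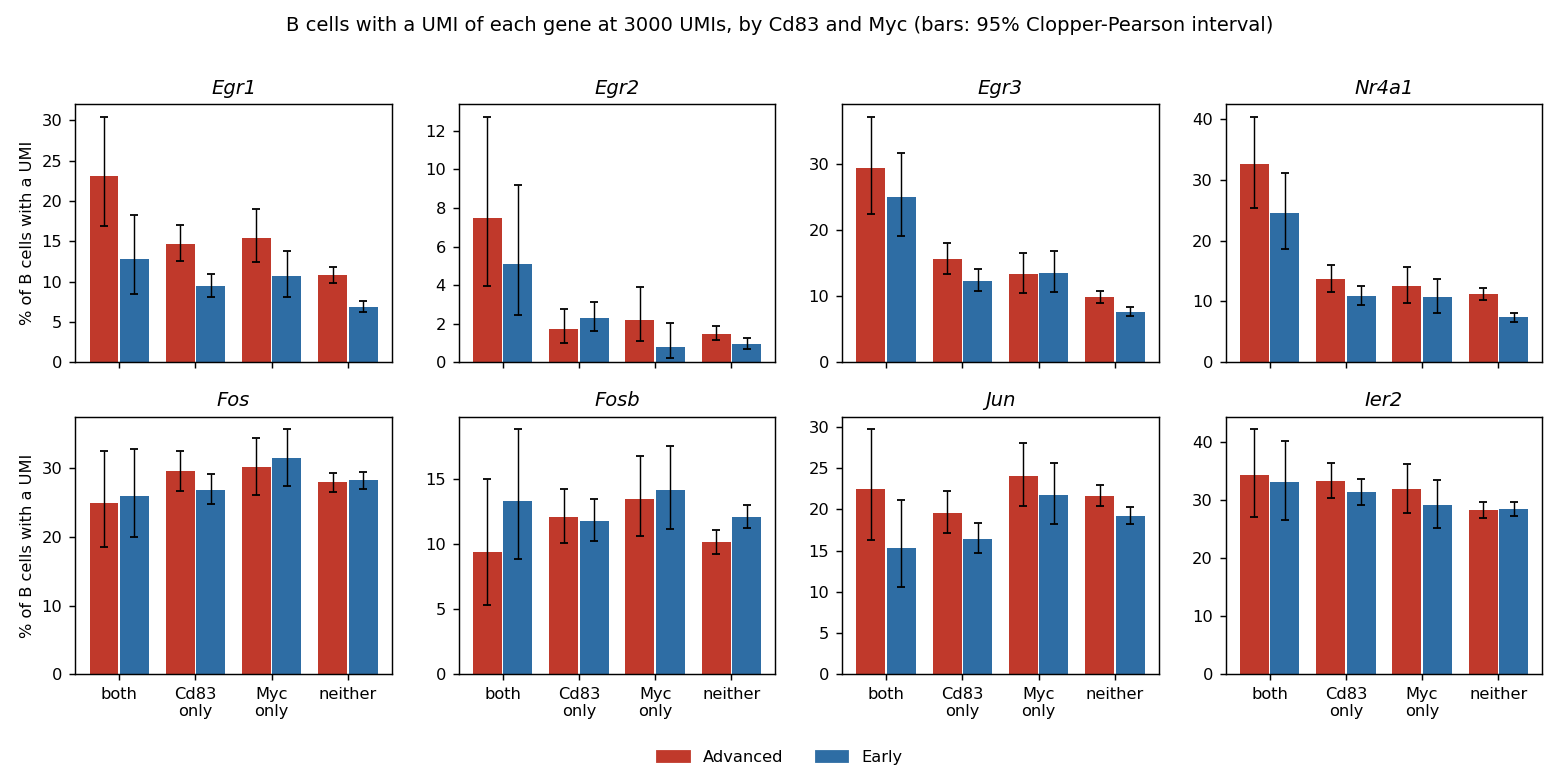
Share of B cells, thinned to 3000 UMIs, with a UMI of each gene (percent) by whether the cell had a UMI of Cd83, Myc, both or neither, with red bars for the Advanced and blue bars for the Early library and 95% Clopper-Pearson intervals of counting error. Nr4a1 reached 32.5% and 24.5% in cells with both genes, while Fos stayed between 25.0% and 31.5% in every set.

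The stage difference of Egr1 was present in cells with and without Cd83. It had a ratio of 2.18 (1.68 to 2.81) in Cd83-high cells and of 1.53 (1.39 to 1.69) in Cd83-zero cells, from 174 Advanced and 80.2 Early CPM and from 65.0 and 42.5 CPM. Nr4a1 had stage ratios of 1.51 (1.18 to 1.93) and 1.53 (1.36 to 1.72) in the same sets. Split by Myc, the Egr1 stage ratio was 1.35 (1.10 to 1.65) in Myc-positive and 1.59 (1.45 to 1.74) in Myc-zero cells. The differences between these ratios were not tested.

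Heat shock genes were read because they also respond to handling. Hspa1a and Hspa1b, the inducible Hsp70 genes, had 0.110 and 0.275 CPM in Advanced and 0.0852 and 0.153 CPM in Early B cells, and no thinned B cell had 2 UMIs of them. The 8 genes of the list with enough counts were others, among them Hspa8 and Hsp90ab1. Whether cells rich in these were cells changed by handling was not tested. In the tenth of B cells with the most UMIs of the whole heat shock list (645 Advanced and 860 Early cells), 0 of 9 members were called higher in both libraries, against 4.91% of 6827 genes. Fos had ratios of 0.702 in the Advanced and 0.809 in the Early library against the other B cells, and Junb 0.798 and 0.795. In the Advanced library 0 members were called higher and 0 lower, against 7.40% and 0.674% of genes, and in the Early library 1 higher and 0 lower, against 6.71% and 0.503%. The called member was Egr3, with ratios of 1.51 in the Advanced and 1.76 in the Early library, beside Cd83 at 1.42 and 1.54, which was also called in the Early library alone. Of the other lists, Gadd45b, Bcl2a1b and Nab2 were called higher in both libraries and Cd44 and Nfkbid in the Advanced library. The cells with the most heat shock UMIs were also deeper before thinning, with medians of 8510 UMIs against 7429 in the Advanced and 7421 against 6520 in the Early library.

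The genes most like each group across B cells were found by Pearson correlation of log-normalised values with the summed group, ranked by the lower value of the 2 libraries. For Egr1, Egr2, Egr3 and Nr4a1, of 6591 genes, these were Cd83 (0.196 Advanced and 0.184 Early), Bcl2a1b, Dusp2, Junb, Rel, Ier2, Myc (0.144 and 0.135), Zfp36l1, Nfkbid and Cd69. For the AP-1 genes with Ier2, of 6588 genes, they were Klf2 (0.341 and 0.310), Cd69 (0.215 and 0.215), Zfp36 (0.252 and 0.207), H3f3b, Tsc22d3, H3f3a, Btg1, Ddx5, Srsf5 and Cd79a. Cd69, an early surface marker of lymphocyte activation, stood in both lists. Between single members, Egr1 and Egr3 had the correlation 0.235 in Advanced and 0.266 in Early B cells, whereas Jun and Cd83 had −0.0152 and −0.0436. These values are descriptions, since the cells of a library share its depth and preparation, and most are weak.

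In T cells the comparison of stages gave more called members than in B cells. Jun, Junb, Ier2 and Nr4a1 were called higher in Advanced T cells, 4 of 9 members against 3.11% of 7484 genes, and 0 were called lower, against 14.3%. Jun was at 117 Advanced and 62.3 Early CPM, a ratio of 1.88 (1.60 to 2.23). Junb was at 851 and 543 CPM (1.57, 1.48 to 1.66), Ier2 at 140 and 86.9 CPM (1.61, 1.40 to 1.86) and Nr4a1 at 25.0 and 12.5 CPM (2.01, 1.40 to 2.98). Jund had a ratio of 0.976 (0.926 to 1.03), and the summed members 1.32 (1.28 to 1.37).

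The T cell libraries differed in cell depth and in CD4 and CD8 cells, and the summed ratio differed between ranges of depth. Cells with at least 20000 UMIs held 20.2% of Advanced and 53.1% of Early T cell UMIs (83 and 37 cells). The summed members stood lower in deeper cells, at 2714 Advanced and 2874 Early CPM in T cells under 10000 UMIs, 1865 and 1574 CPM at 10000 to 20000 and 1048 and 846 CPM at 20000 or more. The ratio within these ranges was 0.944 (0.893 to 1.00), 1.19 (1.12 to 1.26) and 1.24 (1.16 to 1.33). Below 10000 UMIs Jun had a ratio of 0.811 and Junb of 1.01, while in the deeper ranges Jun had 2.61 and 2.67 and Junb 1.3 and 1.49. Without the 5% of cells with the most UMIs the summed ratio was 0.939, and Jun, Junb and Ier2 had ratios of 1.11, 1.02 and 1.37. CD4 cells made up 26.4% of Advanced and 52.9% of Early T cells assigned to CD4 or CD8. At equal weight of both kinds the summed ratio was 1.3, close to the 1.32 of all T cells.

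**Figure D5:**
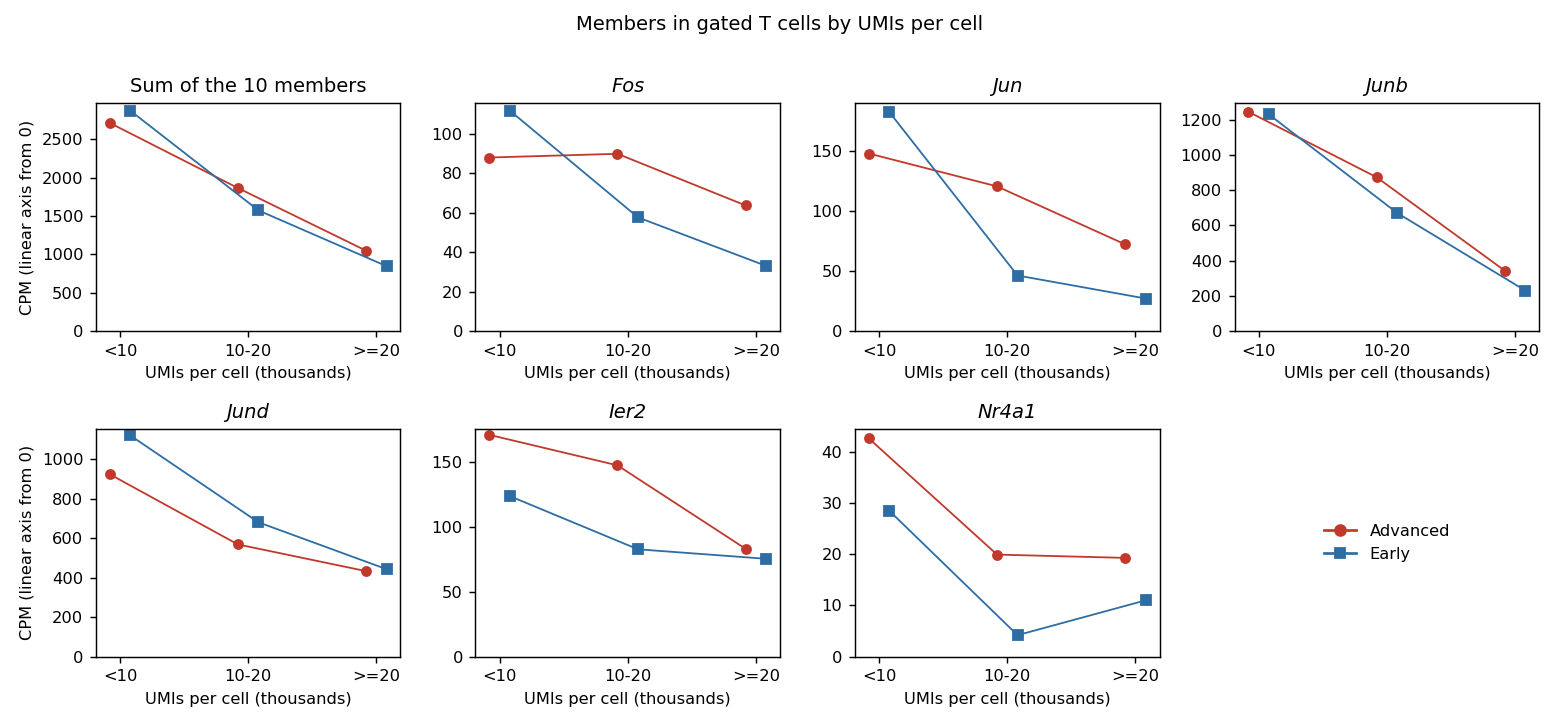
Level (CPM, linear axis from 0) of the summed members and of 6 members in gated T cells by UMIs per cell (under 10000, 10000 to 20000, 20000 or more), with red circles for the Advanced and blue squares for the Early library. The summed level stands at 2714 and 2874 CPM in the shallowest cells and at 1048 and 846 CPM in the deepest.

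CD8 and CD4 T cells were also read apart. In CD8 T cells (584 Advanced and 49 Early) Jun, Junb and Ier2 were called higher, against 2.66% of 7152 genes, with Junb at 827 Advanced and 389 Early CPM, a ratio of 2.12 (1.91 to 2.37), Jun at 113 and 53.1 CPM (2.13) and Ier2 at 154 and 84.0 CPM (1.83). In CD4 T cells (209 and 55) Egr2 and Nr4a1 were called higher, against 1.45% of 7774 genes. Egr2 had 26 Advanced UMIs and 1 Early UMI there, a ratio of 8.14 (1.34 to 334), and Nr4a1 had 47.7 Advanced and 16.0 Early CPM, a ratio of 2.99 (1.60 to 6.17). The CD4 calls rest on 1 and 11 Early UMIs. Within ranges of depth the CD8 ratios differed from the pooled ones, since cells with at least 20000 UMIs held 12.4% of Advanced and 55.5% of Early CD8 UMIs (36 and 13 cells). Junb had ratios of 1.54 (1.17 to 2.06) under 10000 UMIs, 1.44 (1.25 to 1.68) at 10000 to 20000 and 1.92 (1.55 to 2.40) above, each below the pooled ratio. Jun had 1.09 (0.534 to 2.60), 1.36 (0.928 to 2.08) and 3.94 (2.20 to 7.66), with an interval off 1 in the deepest range alone. Ier2 had 1.56 (0.831 to 3.32), 1.6 (1.12 to 2.37) and 1.52 (1.03 to 2.30).

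Of 16 other immediate early genes in T cells, 5 were called higher (Btg2, Klf2, Klf6, Ppp1r15a and Rhob, with Klf2 at 1.84), against 3.11% of all genes, and Gadd45b was called lower (0.443), against 14.3%. Of 8 heat shock genes 4 were called lower in Advanced T cells, namely Hspd1 (0.461), Hsph1, Hsp90aa1 (0.447) and Hsp90ab1 (0.640), against the same 14.3%. These calls were not read within ranges of depth, which differed between the libraries as given above. Of 16 antigen receptor genes, Ccl4 was called higher and Cd83, Cd44, Irf4 and Bcl2a1b lower. In CD8 T cells Btg2, Klf2, Ppp1r15a, Rhob, Ccl4 and Gpr183 were called higher, and Gadd45b, Nr4a2, Nr4a3, Cd44, Irf4, Bcl2a1b, Rel and 4 heat shock genes (those of T cells) lower, against 17.0% of genes. In CD4 T cells Klf2, Klf6, Nr4a3 and Nfkbid were called higher, and Bcl2a1b, Hspa8, Hspd1, Hsph1 and Hsp90aa1 lower, against 2.68%. The median log2 ratio over all genes in T cells was −0.21, and TMM factors moved every T cell ratio by 0.22 on the log2 scale.

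In monocytes or macrophages 0 of 8 members were called in either direction, against 2.06% of 7637 genes higher and 0.733% lower. Jund was at 418 Advanced and 293 Early CPM, a ratio of 1.43 (1.25 to 1.63), Fos had a ratio of 1.3 (1.17 to 1.45) and Nr4a1 one of 1.11 (1.01 to 1.23). Klf2 (1.79) and Klf4 (1.60), zinc finger factors of the Krüppel-like family, were called higher among 17 other immediate early genes, and Ccl3, a chemokine, among 16 antigen receptor genes (4.68). With dendritic cells added, the summed members had 3558 Advanced and 3200 Early CPM, a ratio of 1.11 (1.07 to 1.15).

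In plasmacytoid dendritic cells 3 members were called lower at the Advanced stage. Fos was at 317 Advanced and 482 Early CPM, a ratio of 0.658 (0.570 to 0.760), Jun at 132 and 235 CPM (0.563, 0.453 to 0.699) and Egr1 at 11.0 and 39.7 CPM (0.277, 0.133 to 0.542). These 3 of 8 members were called lower, against 1.55% of 7784 genes, and 0 were called higher, against 0.899%. Ier2 (48.9 Advanced and 45.8 Early CPM) and Nr4a1 (11.8 and 9.91 CPM) had ratios above 1 with intervals that held 1. Of 14 other immediate early genes 0 were called in these cells, and of 13 antigen receptor genes Bcl2a1b was called higher and Cd69, Cd44 and Ccl3 lower. The Egr1 call rests on 13 Advanced and 32 Early UMIs, and the summed members had a ratio of 0.682 (0.633 to 0.735) over 69 Advanced and 55 Early cells. B cell genes did not move one way in these cells. Cd79a (32.9 Advanced and 47.1 Early CPM) and Ms4a1 (7.59 and 8.67 CPM) were lower and Cd79b (75.9 and 63.2 CPM) higher in the Advanced library, Ighd stood at 4.98% and 3.26% of its B cell level, and Fcer2a at 18.8% and 1.22%. Their part in these ratios was not tested.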

How the data were processed

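Live cells from popliteal lymph nodes were profiled with 10x Genomics 3′ chemistry, 1 pooled library of 3 mice a stage. The authors deposited counts, that is, whole numbers of UMIs for each gene in each barcode, without normalisation or a correction of free RNA. The file headers name Cell Ranger 6.0.1 as their source. The submitters' notes on processing list versions 3.1 and 3.1.0 of Cell Ranger, version 4.0.3 of Seurat and mm10 as the genome. Which version was used bears on the reads and barcodes that were counted, and this could not be settled. The Advanced library held 83148059 UMIs and the Early library 67610110 UMIs. There were 0 columns of other samples.

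Cells with at least 200 genes were kept. A cell joined a class when that class's marker panel had at least 3 UMIs and at least 5 times those of any other panel, and plasma cells needed 50 UMIs of Jchain and 5 of Xbp1. No doublet caller was run, and the gate leaves out cells with mixed panels. CPM are summed UMIs of a gene per 1000000 UMIs of the class, with exact Poisson intervals. Ratios have exact conditional intervals and shares Clopper-Pearson intervals, all at 95%. UMIs count molecules rather than PCR copies, and the intervals cover counting error only. With 1 library a stage no test was run. A gene was called at 10 CPM or more in 1 library with an interval wholly beyond 1.3-fold. This rule was tried on simulated Poisson counts, which hold no spread between cells or mice and so cannot show its errors from that spread. For Cd83 and Myc, B cells were thinned to 3000 UMIs, which left out 155 Advanced and 103 Early cells. Named were all members, Cd83, Myc, the genes of each list past the rule, up to 4 others of a list with the most UMIs, and the 10 genes most like each group. The split planned on Hspa1a and Hspa1b found 0 cells with 2 UMIs and was replaced by the whole heat shock list. The members and lists were chosen with earlier results of these data known. Promoters came from RefSeq and positions from GENCODE M21, both on GRCm38. Alternatives were a stricter gate, 500 genes a cell, no cells above 10% mitochondrial UMIs, no top 5% of cells by UMIs, no single richest cell of a gene, no CPM minimum, cells of 4000 to 10000 UMIs unthinned, other totals, thinning to 1500 or 3000 UMIs, TMM factors from edgeR 4.0.16, equal weighting of cells and a fold of 1.5. Python 3.11.15, numpy 2.4.6, scipy 1.17.1, pandas 2.3.3, matplotlib 3.10.9 and R 4.3.3 were used.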

Additional observations from a re-analysis of the deposited data

Results flagged for a closer look

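The Advanced over Early ratios of 5 members had intervals wholly on opposite sides of 1 in different cell classes. These differences between classes were not tested, each class has 1 library a stage, and the intervals behind them cover counting error only.

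Fos had ratios of 1.39 in CD8 T cells and 1.3 in monocytes or macrophages, beside 0.658 in plasmacytoid dendritic cells. Jun had ratios of 2.13 in CD8 T cells, 1.47 in CD4 T cells, 1.31 in monocytes or macrophages and 1.16 in B cells, beside 0.563 in plasmacytoid dendritic cells. Within ranges of UMIs per cell the CD8 Fos ratios were 1.28, 1.18 and 1.00, each with an interval that held 1, and the CD8 Jun ratios 1.09, 1.36 and 3.94, of which only the last had an interval off 1. The CD4 Jun ratio was 0.672 (0.477 to 0.961) under 10000 UMIs, below 1. It was 13.2 (3.53 to 111) at 10000 to 20000 and 5.64 (1.43 to 48.6) at 20000 or more, where Early CD4 T cells had 7.59 and 9.37 CPM.

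Junb had ratios of 2.12 in CD8 T cells, 1.27 in CD4 T cells and 1.05 in B cells, beside 0.777 in plasmacytoid dendritic cells. Its CD8 ratios within those ranges were 1.54, 1.44 and 1.92. Jund had ratios of 1.43 in monocytes or macrophages, 1.33 in CD8 T cells and 1.02 in B cells, beside 0.860 in CD4 T cells and 0.712 in plasmacytoid dendritic cells. Under TMM factors the B cell ratios of Junb and Jund turned below 1, at 0.967 and 0.942.

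Egr1 had a ratio of 1.57 in B cells, beside 0.277 in plasmacytoid dendritic cells, where it had 13 Advanced and 32 Early UMIs. The plasmacytoid dendritic cells numbered 69 in the Advanced and 55 in the Early library.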

How the results depend on the processing

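No paired analysis was possible because each stage is 1 pooled library. Alternatives were run on the ratios in B, T and myeloid cells and on the splits of B cells, and not on the calls in CD4 T, CD8 T and plasmacytoid dendritic cells or on the stage ratio of Cd83. Among those run no called direction reversed, although T cell Jun, called in all T cells, had a ratio of 0.811 below 10000 UMIs and the summed B and T cell ratios, which were not called, each fell below 1 under 1 alternative. In B cells Egr1 kept a ratio above 1 under all 9 alternatives (1.45 to 1.70), as did Nr4a1 (1.21 to 1.41), and 0 members were called higher at a fold of 1.5 while 2 were beyond 1.3-fold with cells weighted equally. The count of members called lower in B cells was 1 with TMM factors. The summed B cell ratio was 1.04 with totals that left out immunoglobulin, ribosomal and mitochondrial genes, 1.07 in thinned cells, 0.968 with TMM factors and 1.08 with cells weighted equally. The summed T cell ratio was the least settled. It was 1.38 with the stricter gate, 0.939 without the 5% of cells with the most UMIs, 1.51 with those other totals, 1.05 in thinned cells, 1.54 with TMM factors and 1.07 with cells weighted equally. The summed myeloid ratio was 1.16 without the 5% of cells with the most UMIs. The count for Cd83 was 4 under each alternative run except 3 in cells thinned to 1500 UMIs, and the count for Myc was 0 there and 2 at a fold of 1.5. At 1500 UMIs Egr1 was called with Cd83 in neither library (1.67, 0.946 to 2.73 Advanced and 1.76, 1.12 to 2.65 Early). Fosb, an AP-1 gene, was called higher there in the Advanced library alone (2.47, 1.33 to 4.20), beside 0.664 (0.330 to 1.20) in the Early library. The causes were not tested. Chosen after seeing the data were the ranges of depth in B and T cells, the equal mix of CD4 and CD8 T cells and the split by the heat shock list, whose count was 1 without the 5% of cells with the most UMIs and 3 in unthinned cells of 4000 to 10000 UMIs. Depth limits Egr2 most, with 390 Advanced and 324 Early UMIs in B cells, and the Early T cells, 166 in number, limit every T cell ratio.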
